A study of Homo sapiens with 46 samples.

Results

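RNA from the cytoplasm of human pluripotent stem cells was compared here with RNA from the nucleus of the same cell type, gene by gene and isoform by isoform. H1, an established human embryonic stem cell line, was grown undifferentiated on Matrigel in mTeSR1 medium. Of the 46 RNA-seq libraries of the series, 6 belong to the comparison, chosen by their labels: 3 of cytoplasm and 3 of nucleus. The cytoplasm libraries hold the supernatant of a mild detergent (NP-40) lysis layered over sucrose, and the nucleus libraries hold part of the washed pellet. Buffers for both fractions carried alpha-amanitin, an inhibitor of RNA polymerase II, and no drug treatment, allele or differentiation step distinguishes the groups. A further 3 nucleoplasm and 3 chromatin libraries, made by lysing the pellet in detergent and urea and taking supernatant and pellet, entered the statistical fit and are given only for orientation. Counts of the authors' assembled transcripts were summed over each Ensembl gene, which gave 15115 genes, of which 13987 passed a filter on low counts and were tested. The replicates are numbered 1 to 3, but the labels do not say whether they came from separate cultures, so p-values measure only the spread between these libraries.

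A messenger RNA is made in the nucleus and exported through nuclear pores, and most are then translated by ribosomes free in the cytosol. An mRNA whose protein begins with a hydrophobic signal sequence is instead carried, while being translated, to the endoplasmic reticulum (ER), a membrane network that is continuous with the outer membrane of the nuclear envelope. The signal recognition particle, which contains the noncoding 7SL RNA, directs that step. Mitochondria keep a small genome of their own and transcribe it inside the organelle, whereas most mitochondrial proteins are encoded in the nucleus, made in the cytosol and imported.

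Library totals ran from 8329295 to 15798639 counts over the 12 libraries, with the lowest in cytoplasm replicate 1. That library also stood apart in composition: transcripts with no Ensembl gene took 0.911% of its counts, against 9.36% and 7.87% in the other cytoplasm libraries. Where leaving that library out moved a named gene by over 1.5 times, the value without it is given beside the result. All 8 pluripotency markers examined were measured, among them POU5F1 at a mean of 3104 CPM (counts per 1000000 of the adjusted library total) in cytoplasm and 1113 CPM in nucleus. Of the markers of germ layers and fibroblasts, KDR, OTX2 and COL1A1 were tested. KDR averaged 26.3 CPM in cytoplasm and 466 CPM in nucleus, OTX2 60.6 and 36.1 CPM, and COL1A1 83.3 and 1095 CPM. MIXL1 fell below the filter at a mean of 0.922 CPM in cytoplasm. The other markers looked for had no gene of that name among those summed. The fraction labels were checked as well. 7SL RNA, a cytosolic RNA, was higher in cytoplasm, but so was MALAT1, an RNA known for its place in nuclear speckles, and mRNAs made inside mitochondria were found mainly in the libraries labelled nucleus. Small RNAs went both ways. Of 19 tested genes typed as miscellaneous RNA 5 rose and 7 fell, and of 19 typed as small nucleolar RNA 3 rose and 9 fell. The highest log2 changes, cytoplasm over nucleus, were 4.42 for a gene named 7SK and 5.04 for SCARNA10, respectively. Both were named after their values were seen, and 7SL is thus not set apart from other small RNAs. For some lists nucleus lay outside the range of nucleoplasm and chromatin. RNAs listed as nuclear-retained summed to a mean of 1727 CPM in nucleus, 3529 in nucleoplasm and 3431 in chromatin. Mitochondrially encoded mRNAs summed to 128200, 99342 and 40210 CPM in the same order. Small structural RNAs, of which only 7SL was tested, summed to 1019 CPM in nucleoplasm and 818 CPM in cytoplasm. The count columns used for nucleus carry the code Nei, which was matched to the nucleus libraries as the 1 fraction left after the other codes were matched by their initials. "Cytoplasm" and "nucleus" therefore mean the libraries so labelled, and every fold change rests on that match. No spike-in is described, so every value is a share of a library's RNA, and less RNA per cell cannot be told apart from fewer cells.

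Of the 13987 genes tested, 9191 (65.7%) were called different, at an adjusted p under 0.05 in edgeR's quasi-likelihood test with Benjamini-Hochberg adjustment. Of these, 4985 genes (35.6% of those tested) were higher in cytoplasm and 4206 (30.1%) were lower. The libraries of the fractions did not overlap for 71.7% of genes, with cytoplasm above nucleus for 39% and below it for 32.7%. The median log2 change, cytoplasm over nucleus, was 0.11 over all genes, with quartiles at -0.76 and 0.76, and a called gene had a median standard error (SE) of 0.18. The extremes were uneven: 403 genes were called lower by 8-fold or more and 25 were called higher by as much. Requiring a 2-fold change left 5231 genes (37.4%), 2394 higher (17.1%) and 2837 lower (20.3%). On the authors' TPM (transcripts per 1000000), which are relative to transcript length, the median over all genes fell by 0.30 and the direction of the calls shifted, so that 34% of them were higher in cytoplasm against 54.2% of the calls made on counts. Lists of genes are therefore read below against the median of all genes.

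**Figure D1:**
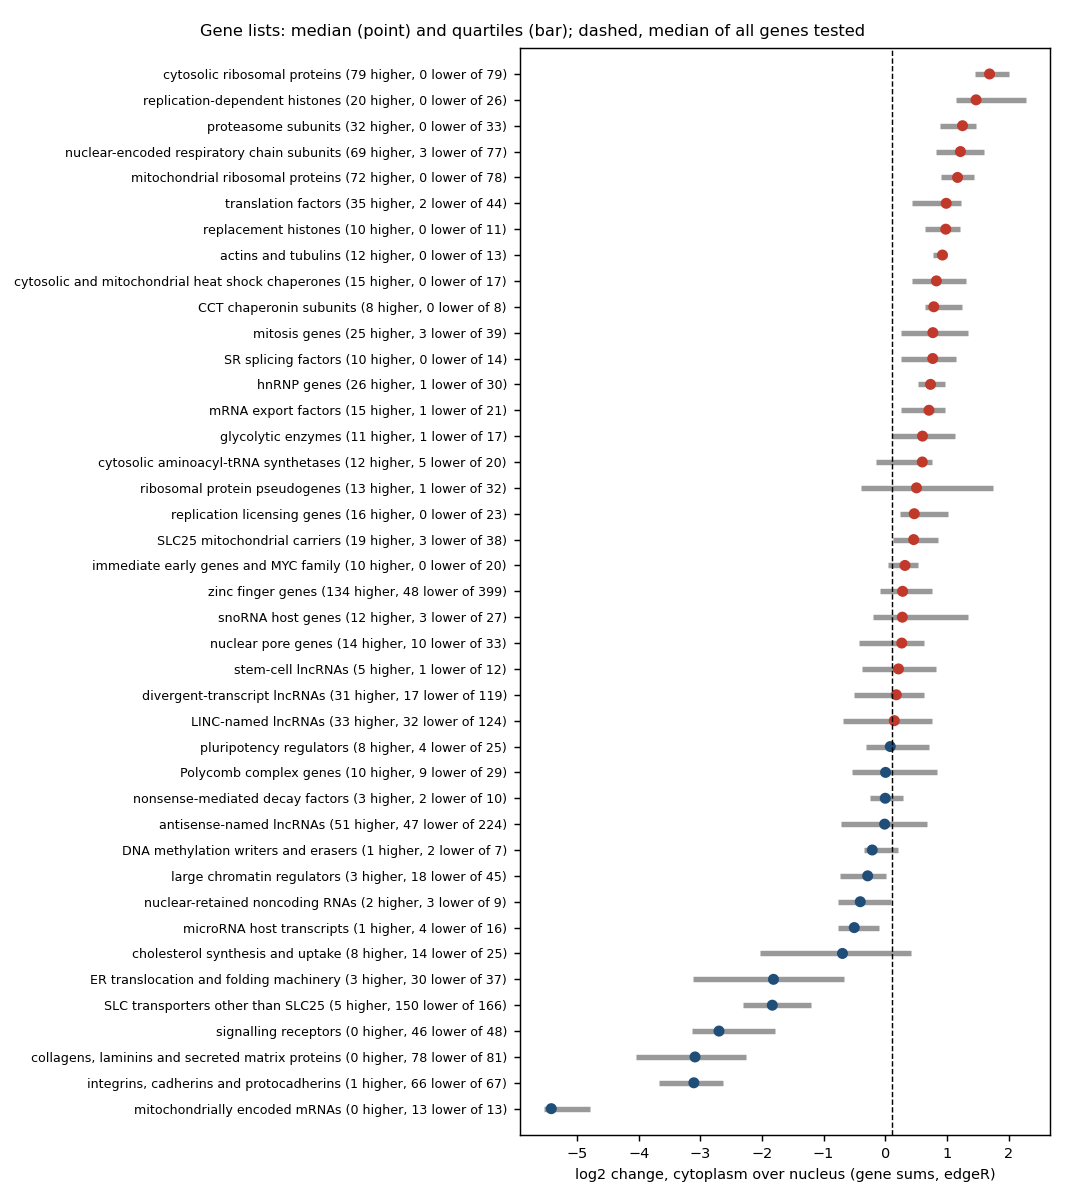
Median log2 change, cytoplasm over nucleus, of each gene list with at least 5 tested members (points), with the quartiles of its members (bars) and the median of all genes tested, 0.11 (dashed line). Numbers in brackets count the members called higher or lower, and lists for secreted and membrane proteins lie from -1.81 to -3.10, below the other nuclear-encoded lists.

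Among genes at a mean of at least 10 CPM with no overlap between the fractions, the 10 with the largest falls were mostly mitochondrial. MT-ND5, a subunit of respiratory complex I, was measured at 79.1, 72.9 and 108 CPM in the 3 cytoplasm libraries and at 6576, 6849 and 7644 CPM in the 3 nucleus libraries. MT-CO1, the catalytic core of cytochrome oxidase, stood at 2107, 1164 and 1497 CPM in cytoplasm and 39502, 43248 and 49356 CPM in nucleus. For both genes every nucleus library lay far above every cytoplasm library. MT-ND5 was 80.8-fold lower in cytoplasm (log2 change -6.34, SE 0.20, adjusted p = 1.62e-10), and MT-CO1 changed by -4.79 (SE 0.22). All 13 mRNAs encoded by the mitochondrial genome fell, with a median log2 change of -5.42, and together they made up a mean of 4400 CPM in cytoplasm and 128200 CPM in nucleus. Genes named MT- took 0.615, 0.399 and 0.530% of the counts of the cytoplasm libraries and 13.1, 13.3 and 15.3% of those of the nucleus libraries.

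Outside that ranking, UPK1B changed by -6.92 and CRYBB2P1 by -9.09. Within it, the 3 Ensembl genes with larger falls than MT-ND5, ENSG00000281181 at -8.6 and ENSG00000280614 and ENSG00000280800 at -6.54 each, lie on chromosome 21. The last 2 had the same log2 change, so reads may have been split between near-identical copies and the values are uncertain.

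Genes of the secretory pathway fell as groups, apart from a few members. None of the 81 tested genes for collagens, laminins and secreted matrix proteins rose and 78 fell, with a median log2 change of -3.09. Of 67 integrin, cadherin and protocadherin genes 66 fell (median -3.10), of 48 signalling receptors 46 fell and none rose (median -2.70), of 166 solute carriers outside the SLC25 family 150 fell (median -1.83), and of 37 genes for ER translocation and folding 30 fell (median -1.81). Over these 5 lists and the list for cholesterol synthesis and uptake, 383 of 423 tested genes fell and 17 rose, where 30.1% of all genes tested fell and 35.6% rose. The medians of the 5 lists lay between 1.92 and 3.22 below the median of all genes, and between 1.51 and 2.71 below it on TPM. In all 5 lists the nucleus libraries held the larger summed level, as in the matrix list, with a mean of 18756 CPM in nucleus and 1620 CPM in cytoplasm.

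The coding starts of a few members show the feature that sets this pathway apart. The first 90 coding bases are given 5′ to 3′ from GENCODE 29 on hg38, with the codons of the most hydrophobic run of 10 residues in capitals. FN1, the secreted matrix protein fibronectin, starts at chr2:215435713-215435802 on the minus strand, CDH1, the adhesion protein E-cadherin, at chr16:68737416-68738338 on the plus strand across an intron, and NID1, a basement membrane linker protein, at chr1:236064990-236065079 on the minus strand. For contrast RPS12, a protein of the small ribosomal subunit, starts at chr6:132814769-132815047 on the plus strand across introns, and no window of its coding start reached the threshold used.
FN1: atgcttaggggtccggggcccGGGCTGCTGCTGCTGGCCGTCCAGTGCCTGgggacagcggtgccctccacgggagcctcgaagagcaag
CDH1: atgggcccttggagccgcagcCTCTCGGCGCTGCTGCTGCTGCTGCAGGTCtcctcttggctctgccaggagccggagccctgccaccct
NID1: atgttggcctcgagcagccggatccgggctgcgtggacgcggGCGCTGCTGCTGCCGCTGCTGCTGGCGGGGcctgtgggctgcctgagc
RPS12: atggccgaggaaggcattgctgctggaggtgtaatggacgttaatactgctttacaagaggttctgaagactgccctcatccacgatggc

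Values of these genes differed in opposite directions. FN1 was measured at 14.7, 19.4 and 20.4 CPM in cytoplasm and 462, 624 and 527 CPM in nucleus, and CDH1 at 56.7, 63.6 and 80.0 CPM in cytoplasm and 1151, 1448 and 1388 CPM in nucleus. In both cases the lowest nucleus library exceeded the highest cytoplasm library many times over. FN1 was 29.4-fold lower in cytoplasm (log2 change -4.88, SE 0.17, adjusted p = 1.62e-10), CDH1 changed by -4.31 (SE 0.16), and NID1 and LAMC1, a laminin chain, both chosen after their values were seen, changed by -4.51 and -4.65, respectively. RPS12 stood at 3237, 1600 and 1321 CPM in cytoplasm and 346, 228 and 257 CPM in nucleus, a log2 change of 2.89 (SE 0.30, adjusted p = 1.92e-06). Its cytoplasm libraries all lay above its nucleus libraries, with cytoplasm replicate 1 at the top, and the log2 change was 2.30 without that library.

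**Figure D2:**
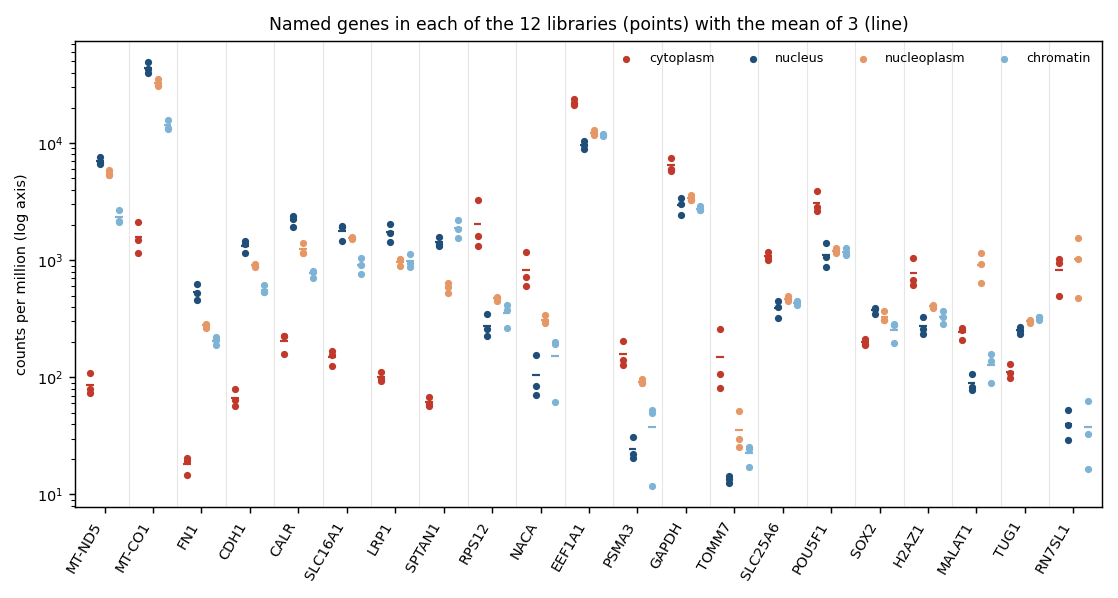
CPM on a log axis for 21 named genes in each of the 12 libraries (points, coloured by fraction) with the mean of the 3 libraries (short lines). FN1, CDH1 and MT-ND5 show cytoplasm points well below all others, whereas RPS12, NACA and TOMM7 show them at the top.

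Within the ER list, the chaperones that fold secreted proteins were among the strongest falls. PDIA4, a protein disulfide isomerase, changed by -4.28 (SE 0.18), and CALR, the calcium-binding chaperone calreticulin, stood at 159, 226 and 225 CPM in cytoplasm against 1917, 2252 and 2398 CPM in nucleus. The 3 members that rose all encode very small membrane proteins. SEC61G, the gamma subunit of the protein-conducting channel, was measured at 148, 79.8 and 52.5 CPM in cytoplasm and 20.5, 13.4 and 17.5 CPM in nucleus (log2 change 2.44, SE 0.40, adjusted p = 0.000132). SEC61B, its beta subunit, rose by 1.48 and OST4, a small subunit of the oligosaccharyl transferase, by 1.92; both were named after their values were seen. Without cytoplasm replicate 1 SEC61G changed by 1.84 and OST4 by 1.3.

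Transporters and receptors followed the same direction. SLC16A1, the lactate carrier MCT1, stood at 126, 154 and 169 CPM in cytoplasm and 1458, 1951 and 1911 CPM in nucleus (log2 change -3.57, SE 0.17), and SLC2A3, a glucose transporter, changed by -3.16 (SE 0.14). LRP1, a large endocytic receptor, fell by 4.10 and IGF2R, the mannose 6-phosphate receptor, by 4.52 on the log2 scale. FGFR1, a fibroblast growth factor receptor, changed less, by -1.89 (SE 0.15), with 325, 328 and 364 CPM in cytoplasm and 1090, 1362 and 1310 CPM in nucleus. SLC9A3R1 shares the symbol of the solute carriers but encodes a scaffold protein. Named after its values were seen, it was among the 5 of that list that rose (0.71, SE 0.12); on TPM it was not called (adjusted p = 0.0655 in limma-trend). ITGAE, an integrin alpha subunit, was the 1 gene of its list that rose (1.53, SE 0.23).

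The same reading was made for every protein-coding gene, using hydropathy computed from the GENCODE 29 coding sequence, a measure chosen after these results were seen. A gene was counted as having an N-terminal segment where a window of 10 residues starting within the first 30 averaged at least 2.0 on the Kyte-Doolittle scale, and an internal segment where a later window of 19 residues averaged at least 1.6. Of 12219 genes, the 7596 with neither had a median log2 change of 0.46, and 3897 rose and 1001 fell. The 1083 genes with an N-terminal segment alone had a median of -0.95 (620 fell), and the 768 with an N-terminal and 1 internal segment a median of -1.78 (596 fell). A single internal segment went with a median of 0.05 in 1301 genes, 390 of which rose and 391 fell. With 6 or more internal segments, the pattern of multi-pass membrane proteins, 402 of 447 genes fell and 4 rose (median -1.80). Of the 369 genes with computed segments that were called lower by 8-fold or more, 355 had at least 1.

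Genes with a segment that belong neither to the 5 secretory lists nor to the cholesterol list numbered 4216, of which 2286 fell and 758 rose (median -0.70). Genes for mitochondrial proteins went the other way: of 62 with a segment on the nuclear-encoded mitochondrial lists, 45 rose and 2 fell (median 0.92). TOMM7, a small subunit of the import channel of the outer mitochondrial membrane, has an N-terminal run by this measure. It was among the 10 largest rises of genes at a mean of at least 10 CPM with no overlap. TOMM7 stood at 256, 107 and 81.7 CPM in cytoplasm and 12.6, 13.5 and 14.5 CPM in nucleus (log2 change 3.44, SE 0.39, and 2.70 without cytoplasm replicate 1).

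Longer coding sequences went with lower values, more so among genes with no segment. Among genes with no segment the median was 1.39 below 500 bases, where 85.4% of 745 genes rose, 0.87 from 500 to 1000, 0.42 from 1000 to 2000, 0.03 from 2000 to 4000, and -0.37 above 4000 bases. Genes with a segment had lower medians at every length, from 0.57 below 500 bases to -1.02 from 1000 to 2000, -1.13 from 2000 to 4000 and -1.10 above 4000, with no further fall in the longest class. Across the 7596 genes with no segment, Spearman's rho between coding length and log2 change was -0.54, and across the 4623 genes with a segment it was -0.29, descriptions over genes that share the same libraries. Short genes were also higher in cytoplasm replicate 1 than in its neighbours, and without that library the median of the shortest class with no segment lay 1.01 rather than 1.28 above that of all genes. The part that fragment length or the authors' transcript quantification plays in the relation to length was not tested.

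**Figure D3:**
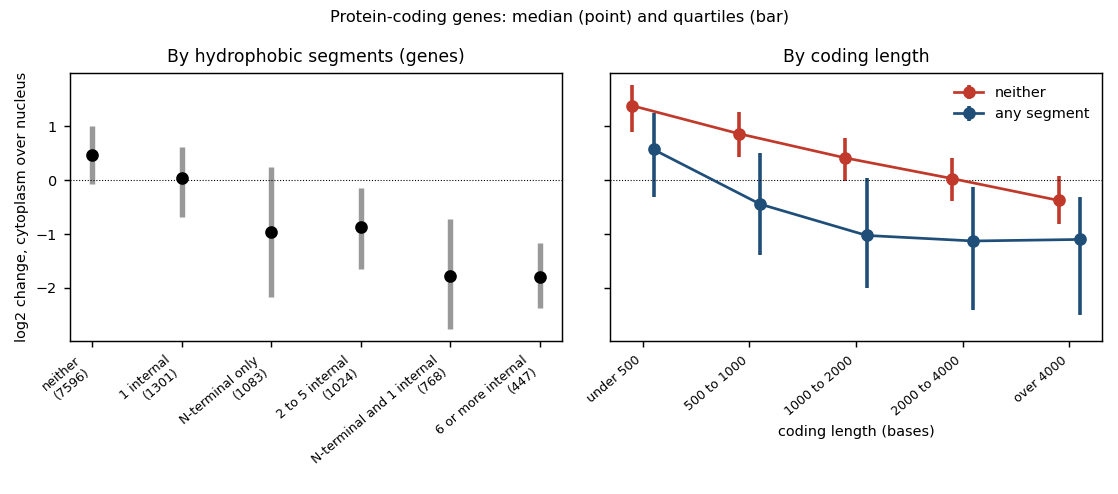
Median log2 change, cytoplasm over nucleus (points), with quartiles (bars), for protein-coding genes by hydrophobic segments (left, number of genes in brackets) and by coding length in bases with and without any segment (right). The median runs from 0.46 with neither segment to -1.80 with 6 or more, and genes with a segment lie lower at every length.

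Among genes with no segment, 14 were called lower by 8-fold or more, and they include large proteins of the membrane skeleton. SPTAN1, the alpha chain of nonerythroid spectrin, was measured at 56.7, 59.4 and 68.5 CPM in cytoplasm and 1319, 1584 and 1374 CPM in nucleus (log2 change -4.53, SE 0.17, adjusted p = 1.69e-10). SPTBN1, its beta chain partner, changed by -4.12, IQGAP1, an actin-binding scaffold, by -4.04, and PLEC, the cytolinker plectin, by -3.09. All 4 were separated from cytoplasm by the full range of the nucleus libraries, and all were chosen from these 14 after their values were seen. In the other fractions SPTAN1 stood at 1850, 1560 and 2214 CPM in chromatin, a range that overlaps the nucleus libraries, and lower in nucleoplasm, at 586, 643 and 525 CPM. FN1, in contrast, stood at 262, 282 and 288 CPM in nucleoplasm and 209, 188 and 222 CPM in chromatin. COL6A1 and GRN, which are secreted and were named after their values were seen, also appeared among the genes with no segment, so the measure misses some signal sequences.

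Genes of cytosolic protein synthesis rose together. All 79 tested cytosolic ribosomal protein genes were called higher (median 1.69), and summed over the list the mean level was 141891 CPM in cytoplasm and 47445 CPM in nucleus. Each cytoplasm library against the nucleus mean gave a median of 2.33, 1.40 and 1.22, so replicate 1 carried the largest difference; relative to all genes the median was 1.58, and 1.19 without that library. Of 44 translation factors 35 rose and 2 fell (median 0.99). EEF1A1, the elongation factor that brings transfer RNAs to the ribosome, was measured at 21017, 23663 and 22003 CPM in cytoplasm and 10346, 8827 and 9668 CPM in nucleus (log2 change 1.21, SE 0.12, adjusted p = 1.42e-06). EIF4E, which binds the mRNA cap, rose by 1.97 (SE 0.25). EIF4G1, the large scaffold that joins the cap to the ribosome, was 1 of the 2 that fell, with 387, 517 and 545 CPM in cytoplasm and 763, 881 and 818 CPM in nucleus (log2 change -0.76, SE 0.13). EIF4G3, a paralogue named after its values were seen, changed by -0.57 (adjusted p = 0.0431) and was not called without cytoplasm replicate 1, 2 or 3 or without nucleus replicate 2, where the adjusted p ran from 0.0531 to 0.0846. NACA, a subunit of the complex that shields nascent chains at the ribosome and also named after its values were seen, stood at 1168, 715 and 608 CPM in cytoplasm and 156, 70.5 and 85.2 CPM in nucleus (log2 change 3.00, SE 0.41).

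Aminoacyl-tRNA synthetases, which charge transfer RNAs, were mixed. Of 20 genes 12 rose and 5 fell (median 0.60), and on TPM 4 rose and 6 fell. MARS1, the methionyl enzyme, had the largest fall at -0.95 (SE 0.12).

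Other cytosolic machines leaned the same way as the ribosome. Of 33 proteasome subunit genes 32 rose and none fell (median 1.25), with PSMA3, a subunit of the core particle, at 206, 141 and 127 CPM in cytoplasm and 31.1, 22.2 and 20.6 CPM in nucleus (log2 change 2.68, SE 0.40). All 8 subunits of the CCT chaperonin rose (median 0.79), as did 15 of 17 heat shock chaperones (median 0.83) and 12 of 13 actin and tubulin genes (median 0.93). CCT8 stood at 498, 507 and 477 CPM in cytoplasm and 182, 148 and 169 CPM in nucleus, and the libraries of the fractions did not overlap. Of 17 glycolytic enzymes 11 rose and 1 fell (median 0.60); GAPDH, which oxidises glyceraldehyde 3-phosphate, rose by 1.13 (SE 0.15) and LDHB, a lactate dehydrogenase subunit, by 1.68 (SE 0.19). On TPM fewer of these rose: 4 CCT subunits, 7 heat shock chaperones and 7 glycolytic enzymes.

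Metallothioneins, small cysteine-rich proteins that bind zinc and copper, gave 4 of the 10 largest rises among genes at a mean of at least 10 CPM with no overlap. MT1H was measured at 44.2, 14.9 and 10.8 CPM in cytoplasm and 0.449, 0.332 and 0.563 CPM in nucleus (log2 change 5.63, SE 0.57, adjusted p = 1.65e-06). MT1E changed by 4.77, MT1G by 4.54 and MT2A by 4.13. In all 4 genes cytoplasm replicate 1 was the highest library, and both remaining cytoplasm libraries exceeded all nucleus libraries. Without that library the changes were 4.70 for MT1H, 3.99 for MT1E, 3.72 for MT1G and 3.31 for MT2A, and all were called. These genes are near-identical paralogues, so the split of reads among them is uncertain. BCAS2, a spliceosome component, was also among the largest rises, at 92.3, 66.1 and 66.1 CPM in cytoplasm and 8.6, 7.55 and 5.56 CPM in nucleus (log2 change 3.37, SE 0.45).

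Nuclear-encoded mitochondrial genes were opposite to the mRNAs made inside the organelle. Of 78 mitochondrial ribosomal protein genes 72 rose and none fell (median 1.17), and of 77 respiratory chain subunit genes 69 rose and 3 fell (median 1.22). Relative to all genes these medians were 1.06 and 1.11, and 0.84 and 0.79 without cytoplasm replicate 1. ATP5F1B, the catalytic beta subunit of ATP synthase, stood at 1350, 1236 and 1205 CPM in cytoplasm and 751, 749 and 833 CPM in nucleus (log2 change 0.70, SE 0.11); on TPM it was not called (adjusted p = 0.0779 in limma-trend). ATP5ME, a small membrane subunit of the same enzyme, rose by 3.07 (SE 0.58), and by 2.28 without cytoplasm replicate 1. COX6A1, a subunit of cytochrome oxidase, was the largest of the 3 falls, with 186, 112 and 97.3 CPM in cytoplasm and 339, 395 and 410 CPM in nucleus (log2 change -1.53, SE 0.19, adjusted p = 1.1e-05). The others were NDUFB9 of complex I at -0.84 and SDHA of complex II at -0.56, both named after their values were seen.

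The solute carrier families split by destination. SLC25 carriers sit in the inner mitochondrial membrane, and of 38 tested 19 rose and 3 fell (median 0.46), where of the 166 other solute carriers 5 rose and 150 fell. SLC25A6, an ADP/ATP carrier, was measured at 1169, 1060 and 1003 CPM in cytoplasm and 445, 320 and 401 CPM in nucleus (log2 change 1.47, SE 0.13), in the opposite direction to SLC16A1 above. The falls were SLC25A16, which averaged 0.269 CPM in cytoplasm and 0.909 CPM in nucleus, SLC25A29, a basic amino acid carrier that changed by -1.05, and SLC25A37, an iron importer that changed by -0.90. SLC25A29 and SLC25A37 were named after their values were seen. On TPM 11 SLC25 genes rose and 7 fell (median 0.04, against -0.19 for all genes).

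Cholesterol synthesis joins soluble and membrane enzymes in 1 pathway, and its genes divided. Of 25 tested, 8 rose and 14 fell (median -0.69), 32% and 56% of the list against 35.6% and 30.1% of all genes. SREBF2, the ER-anchored transcription factor of the pathway, was measured at 137, 172 and 184 CPM in cytoplasm and 460, 513 and 549 CPM in nucleus (log2 change -1.63, SE 0.14), and its fractions did not overlap. The genes that rose include IDI1, the isopentenyl diphosphate isomerase (1.74, SE 0.25), PMVK, the phosphomevalonate kinase (1.59, SE 0.20), and FDPS, the farnesyl diphosphate synthase (0.82, SE 0.10). These 3 of the 8 encode enzymes that are not membrane anchored. The list was not sorted by membrane anchoring, so a split of the whole list along that line was not tested. PMVK and FDPS were named after their values were seen, and on TPM 4 genes of the list rose.

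Of 33 nuclear pore genes 14 rose and 10 fell (median 0.27), 42.4% and 30.3% of the list, near the 35.6% and 30.1% of all genes. On TPM the median was -0.0784. NUP210, a pore protein with a transmembrane segment, was measured at 47.1, 44.2 and 52.0 CPM in cytoplasm and 530, 650 and 603 CPM in nucleus, 12.4-fold lower in cytoplasm (log2 change -3.64, SE 0.15, adjusted p = 2.66e-10). NDC1, another transmembrane pore protein, changed by -2.05, and POM121 and POM121C, near-identical transmembrane pore genes, by -1.05 and -1.08; these 3 were named after their values were seen. NUP35, which has no segment by the measure used, rose by 2.12 (SE 0.21). The count of pore genes that rose was sensitive to the libraries: it was 8 without nucleus replicate 2, 9 without nucleus replicate 3 and 4 on TPM.

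Genes for proteins of the nucleus did not share 1 direction. Replication-dependent histones, whose mRNAs end in a stem-loop and carry no poly(A) tail, rose in 20 of 26 tested (median 1.47), though 3 further members were below the filter and the whole list summed to a mean of 138 CPM in cytoplasm and 53.9 CPM in nucleus. H2AC6 was measured at 31.4, 27.4 and 18.7 CPM in cytoplasm and 13.8, 8.22 and 11.5 CPM in nucleus. Of 11 replacement histones 10 rose (median 0.98), among them H2AZ1, at 1045, 685 and 610 CPM in cytoplasm and 325, 236 and 259 CPM in nucleus (log2 change 1.51, SE 0.19), and H3-3B (1.47, SE 0.15). Replication licensing genes rose in 16 of 23 (median 0.47; 10 without nucleus replicate 2 and 7 on TPM), and mitosis genes in 25 of 39, with 3 that fell (median 0.77). TTK, the spindle checkpoint kinase, rose by 2.27 (SE 0.37) and ESPL1, the protease separase, changed by -1.33 (SE 0.15).

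Large chromatin regulators lay below the median of all genes, with 3 of 45 that rose and 18 that fell (median -0.29; 32 fell on TPM). KMT2A, a histone H3 lysine 4 methyltransferase, was measured at 29.3, 30.4 and 32.5 CPM in cytoplasm and 116, 139 and 112 CPM in nucleus (log2 change -1.99, SE 0.11). Summing annotated transcripts alone gave -7.03 for KMT2A with an adjusted p of 0.081. HUWE1, a very large ubiquitin ligase, changed by -1.06 (SE 0.15). CHD1, a chromatin remodeller, rose by 1.75 (SE 0.47), and its adjusted p was 0.0516 on TPM. Its chromatin replicate 3 stood far below the other chromatin libraries, at 6.70 CPM against 51.7 and 47.9 CPM, and a fit of the 6 cytoplasm and nucleus libraries alone gave 1.66 (SE 0.13). Zinc finger genes rose in 134 and fell in 48 of 399 tested (median 0.28), 33.6% and 12% of the list against 35.6% and 30.1% of all genes. Without nucleus replicate 2 or 3, 86 of them rose, and on TPM 48 rose and 77 fell.

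Regulators of pluripotency lay near the background. Of 25 tested 8 rose and 4 fell (median 0.08), 32% and 16% against 35.6% and 30.1% of all genes, while on TPM 4 rose and 11 fell. POU5F1, the transcription factor OCT4, was measured at 3867, 2833 and 2611 CPM in cytoplasm and 1407, 874 and 1058 CPM in nucleus (log2 change 1.48, SE 0.18, adjusted p = 9.96e-06). SOX2, its partner on many target genes and an mRNA from a gene with no intron, stood at 213, 190 and 193 CPM in cytoplasm and 347, 382 and 389 CPM in nucleus (log2 change -0.91, SE 0.14). Neither pair of fractions overlapped. L1TD1, an RNA-binding protein derived from a LINE-1 element, rose by 1.88 (SE 0.36), with its highest level in nucleoplasm at 1052, 955 and 840 CPM. TDGF1, a membrane-anchored coreceptor for Nodal, changed by -0.71 (SE 0.13). NANOG had a log2 change of 0.61 (adjusted p = 0.00476), but its libraries overlapped, at 61.2, 91.4 and 88.4 CPM in cytoplasm and 61.9, 43.7 and 52.9 CPM in nucleus. Without nucleus replicate 2 it stood at 0.35 (adjusted p = 0.111), without nucleus replicate 3 at 0.50 (adjusted p = 0.0539). DNMT3B, a de novo DNA methyltransferase, was not called (-0.21, SE 0.12, adjusted p = 0.139), with overlapping libraries; it was called without nucleus replicate 2 (-0.37, adjusted p = 0.0432) and in DESeq2 (-0.28, adjusted p = 0.0293).

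Genes for hnRNP proteins, SR splicing factors and mRNA export factors leaned to cytoplasm, but smaller lists of RNA-processing genes did not. Of 10 nonsense-mediated decay factors 3 rose and 2 fell (median 0.0002), and of 3 CLK kinases 1 rose and 1 fell (median -0.007). Of 30 hnRNP genes 26 rose and 1 fell (median 0.73), of 14 SR splicing factors 10 rose and none fell (median 0.77), and of 21 mRNA export factors 15 rose and 1 fell (median 0.71). HNRNPA1, an abundant binder of nascent RNA, stood at 4320, 4065 and 3866 CPM in cytoplasm and 2052, 1470 and 1530 CPM in nucleus (log2 change 1.28, SE 0.15). SRSF3, which promotes exon inclusion and export, rose by 1.18 (SE 0.20), and ENY2, a small subunit of an export complex, by 2.66 (SE 0.33). On TPM 16 hnRNP genes and 8 export factors rose.

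The gene sums hide differences between isoforms. Of 28897 transcripts tested, 11459 (39.7%) were called, 5677 (19.6%) higher and 5782 (20%) lower in cytoplasm. The libraries of the fractions did not overlap for 54.5% of transcripts, 27.3% above and 27.2% below. On TPM 29.5% of the calls were higher, against 49.5% on counts. Of 6594 genes with at least 2 tested transcripts, 492 had 1 called in each direction; the sum of these genes was not called for 183, higher for 219 and lower for 90. The count of such genes depended on 1 library, and was 310 without nucleus replicate 2. Such genes made up 7.46% of the 6594, and they included 11 of 20 genes that host small nucleolar RNAs (snoRNAs) in their introns and 4 of 7 actin and tubulin genes. These lists held 142 and 26 tested transcripts, and the number of transcripts per gene was not adjusted for.

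Kinds of transcript differed. Isoforms that GENCODE 29 classes as retaining an intron numbered 525 tested, of which 34 rose and 219 fell (median -1.03). Within genes with several transcripts, 480 of them lay a median of 0.68 below the log2 change of their own gene. Isoforms of known genes that carry no Ensembl transcript, called unannotated here, rose in 612 and fell in 2583 of 11212 cases (median -0.52). Against their own gene, 9504 of these unannotated isoforms lay at a median of -0.041 (quartiles -0.896 and 0.604), near the 0.048 of coding isoforms. A lean of unannotated isoforms to nucleus was thus hardly seen within genes. Isoforms of the class targeted by nonsense-mediated decay (NMD) rose in 79 and fell in 21 of 366 (median 0.50). Of these, 359 lay a median of 0.176 above their own gene. As shares of the counts on Ensembl genes, retained-intron isoforms took 0.573, 0.460 and 0.431% in cytoplasm and 0.703, 0.809 and 0.674% in nucleus. NMD isoforms took 0.569, 0.516 and 0.496% in cytoplasm and 0.335, 0.309 and 0.296% in nucleus. Neither share overlapped between fractions.

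The share of unannotated isoforms depended on the gene family. Over all genes it was 9.19, 11.6 and 11.5% in cytoplasm and 14.9, 16.5 and 14.8% in nucleus. In snoRNA host genes it was 19.1, 27.9 and 31.3% in cytoplasm and 44.2, 50.3 and 46.1% in nucleus, and in mRNA export factors 1.96, 3.09 and 3.74% against 9.02, 10.4 and 10.4%. In these families every nucleus library lay above every cytoplasm library. The order was opposite in the solute carriers outside SLC25, with 13, 12.6 and 11.3% in cytoplasm and 7.26, 7.71 and 6.94% in nucleus, and in signalling receptors, with 24.3, 24.4 and 24.7% against 19.3, 18.4 and 17.8%.

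**Figure D4:**
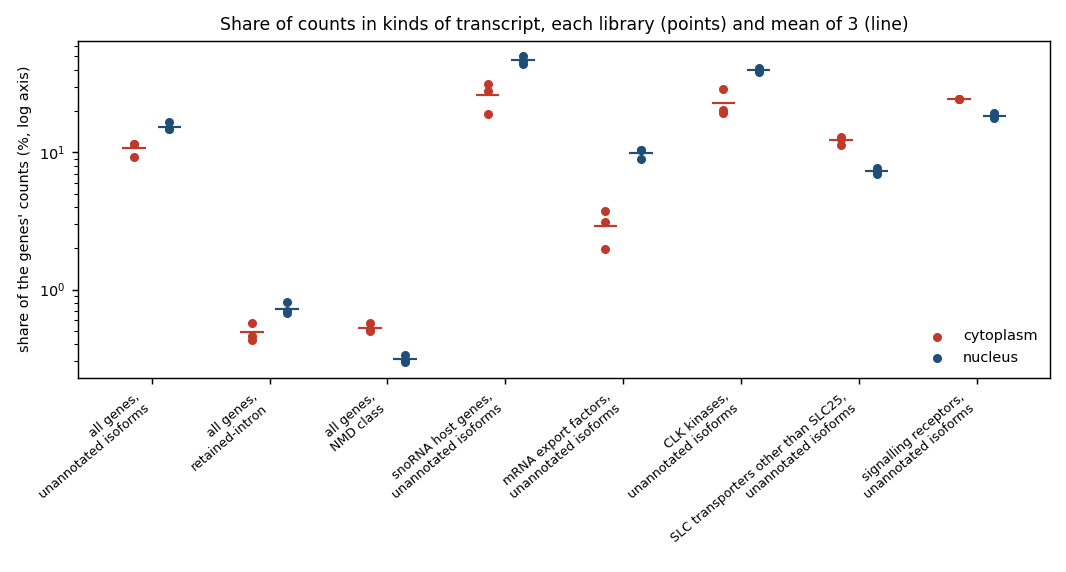
Share of a group's counts, in percent on a log axis, that fell on unannotated, retained-intron or NMD-class isoforms in each cytoplasm and nucleus library (points) with the mean of 3 (lines). Unannotated isoforms of snoRNA host genes took 19.1 to 31.3% in cytoplasm and 44.2 to 50.3% in nucleus, and those of solute carriers and receptors were higher in cytoplasm.

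Single genes gave the widest gaps. GAS5, a snoRNA host, rose as a gene (0.91, SE 0.21, adjusted p = 0.0015). An Ensembl isoform not classed in GENCODE 29 stood at 146, 74.2 and 62.1 CPM in cytoplasm and 7.02, 11 and 10.2 CPM in nucleus (log2 change 3.32, SE 0.33), while a retained-intron isoform stood at 4.55, 2.52 and 2.40 CPM in cytoplasm and 14.4, 26 and 21.8 CPM in nucleus (log2 change -2.74, SE 0.32). CALM2, which encodes the calcium sensor calmodulin, repeated this order: the gene rose by 1.96 and its retained-intron isoform changed by -0.94 (SE 0.20). The CALM2 isoform that rose (4.11, SE 1.19) was not called without nucleus replicate 3 (adjusted p = 0.0522). DPH7, of the diphthamide pathway, carried a pair of unannotated isoforms at 2.34 and -2.34 (SE 0.44 and 0.51), the first at 2.97 without nucleus replicate 1.

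In further pairs an isoform stood at 0 CPM in at least 1 library, as did the higher CALM2 isoform in nucleus replicate 2. SRRT, a partner of the nuclear cap-binding complex, was not called as a gene (-0.14, adjusted p = 0.35), yet a coding isoform stood at 35.8, 53.5 and 57.9 CPM in cytoplasm and 0, 0 and 0.677 CPM in nucleus, and another at 12.1, 13.4 and 0 CPM in cytoplasm and 67.1, 84.0 and 68.3 CPM in nucleus. Without nucleus replicate 2 neither was called (adjusted p = 0.0505 and 0.0616), and the second was not called without nucleus replicate 3 either (adjusted p = 0.0509). HNRNPA2B1, E2F1 and ENSG00000274276 completed the 8 widest pairs; each had an isoform lower in cytoplasm, in HNRNPA2B1 by at least 301-fold, computed against a floor of 3 counts per library because all cytoplasm libraries were at 0. The higher isoform of E2F1 and both isoforms of ENSG00000274276 lost their call in several fits with 1 library fewer. Estimated counts of isoforms of 1 gene share reads, so they are not independent of each other.

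Because coding segments went with the direction of whole genes, isoforms of the same gene that differ in a segment were compared, a comparison chosen after the gene results were seen and given with no test. In 168 genes the data held at least 1 tested coding isoform with a segment and 1 without, and the most abundant of each kind was taken. The isoform with a segment was the lower one in 109 genes and the higher one in 59. Coding length, which also went with the direction of whole genes, was not matched between the isoforms, and its part was not tested. Isoforms with a segment had a median log2 change of 0.11, those without 0.70, and the median difference was -0.54 with quartiles at -1.40 and 0.39. Without cytoplasm replicate 1 the count was 101 of 168 and the median difference -0.38.

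Both isoforms averaged at least 20 CPM and differed by at least 4-fold in 6 genes, in 5 of them with the segment isoform lower. In each of the 6 the segment isoform also had the longer coding sequence. It had 2226 against 1848 bases in NFE2L1 and 3726 against 522 bases in IARS1. NFE2L1 encodes a stress-responsive transcription factor that is made at the ER membrane and cut free from it. Its isoforms start at different codons, and the long start carries a hydrophobic run, in capitals, that the short start lacks. Both are read on the plus strand of hg38, the long start at chr17:48051119-48051208 and the short start at chr17:48055019-48055108.
NFE2L1 long start: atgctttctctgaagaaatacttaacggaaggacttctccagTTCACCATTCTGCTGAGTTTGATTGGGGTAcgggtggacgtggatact
NFE2L1 short start: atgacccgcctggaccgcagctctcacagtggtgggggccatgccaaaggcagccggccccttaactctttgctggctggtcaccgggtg

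The NFE2L1 isoform with the long start and 5 exons was measured at 64.4, 58.3 and 78.1 CPM in cytoplasm and 312, 418 and 424 CPM in nucleus (log2 change -2.52, SE 0.15). A second long-start isoform, with 6 exons, changed by -3.91 (SE 0.26). The isoform with the short start stood at 59.7, 60.2 and 69.7 CPM in cytoplasm and 46.2, 23.5 and 34.8 CPM in nucleus (log2 change 0.86, SE 0.22, adjusted p = 0.011). The long-start isoforms were thus below their nucleus level in every cytoplasm library and the short-start isoform above it. The call of the short-start isoform was lost on TPM (adjusted p = 0.182) and in a fit of the 6 libraries alone (adjusted p = 0.0549).

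POM121 showed the same order inside the nuclear pore. Its isoform with a transmembrane segment stood at 9.36, 8.89 and 17.2 CPM in cytoplasm and 78.2, 94.7 and 99.7 CPM in nucleus (log2 change -2.94, SE 0.26, adjusted p = 1.65e-05). The isoform that starts downstream and lacks it stood at 39.3, 60.7 and 68.5 CPM in cytoplasm and 51.7, 40.1 and 47.9 CPM in nucleus, and was not called (0.27, SE 0.19, adjusted p = 0.299); without cytoplasm replicate 1 it was called (0.47, adjusted p = 0.0267). In POM121C the corresponding values were -1.95 (SE 0.22) with the segment and 0.22 (SE 0.34) without, and since the genes are near-identical they may share reads. ITM2C, an integral membrane protein, had a segment isoform at 270, 236 and 245 CPM in cytoplasm and 643, 721 and 832 CPM in nucleus (log2 change -1.55, SE 0.11) and an isoform with no segment that rose by 1.09 (SE 0.21). IARS1, the isoleucyl-tRNA synthetase, gave -0.46 with and 3.86 without (8.01 without nucleus replicate 2), and RPL23A, a ribosomal protein, went the other way with 4.04 and 1.82. The IARS1 isoform that rose lost its call without cytoplasm replicate 1 or 2 or nucleus replicate 3, where the adjusted p ran from 0.066 to 0.0889, and the RPL23A isoform at 4.04 lost it without nucleus replicate 1 (adjusted p = 0.0515).

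**Figure D5:**
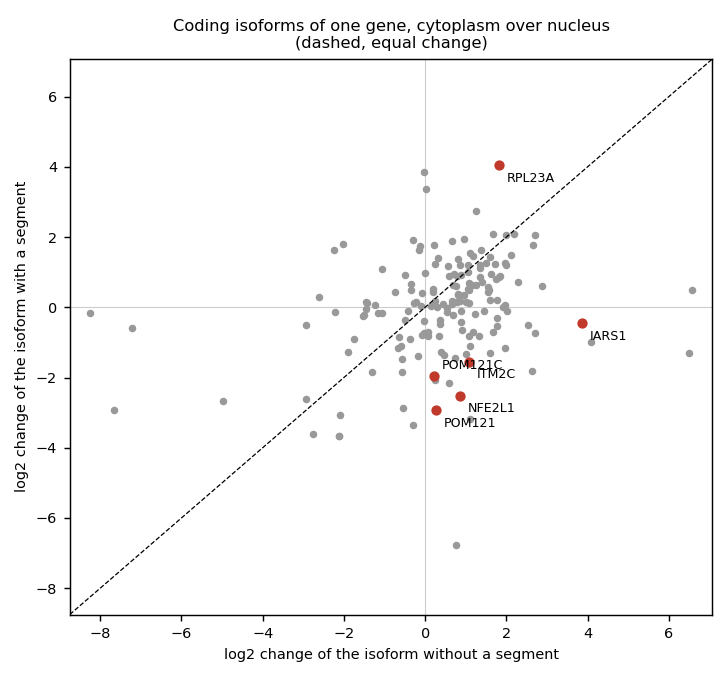
Log2 change, cytoplasm over nucleus, of the isoform with a hydrophobic segment (vertical) against the isoform without (horizontal) in 168 genes, with 6 genes named that differ by at least 4-fold at 20 CPM or more. In 109 of the genes the point lies below the dashed line of equal change.

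Noncoding RNAs had no common direction. RN7SL1, which encodes 7SL RNA, was measured at 942, 1017 and 495 CPM in cytoplasm and 29, 38.8 and 52.4 CPM in nucleus, 20.4-fold higher in cytoplasm (log2 change 4.35, SE 0.52, adjusted p = 7.86e-06). Its nucleoplasm libraries held 473, 1560 and 1024 CPM and its chromatin libraries 33.2, 63.1 and 16.5 CPM. MALAT1 stood at 256, 266 and 209 CPM in cytoplasm, above 77.4, 107 and 83.3 CPM in nucleus (log2 change 1.45, SE 0.24, adjusted p = 0.000114), and highest in nucleoplasm, at 937, 1148 and 635 CPM. NEAT1, the scaffold of nuclear paraspeckles, named after its values were seen, was near the lower limit of the data at 3.76, 3.95 and 2.60 CPM in cytoplasm and 1.12, 1.91 and 0.985 CPM in nucleus, and its call (1.36, SE 0.33) was lost on TPM (adjusted p = 0.282). TUG1, a long noncoding RNA with a known nuclear share, was lower in cytoplasm, at 129, 98.6 and 108 CPM against 233, 271 and 250 CPM (log2 change -1.17, SE 0.12), as was MIAT (-0.83, SE 0.17). Over the 9 tested RNAs listed as nuclear-retained, 2 rose and 3 fell (median -0.41).

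Long noncoding RNAs as classes were near the median of all genes. Of 124 LINC-named genes 33 rose and 32 fell (median 0.15), and of 224 genes named as antisense 51 rose and 47 fell (median -0.01); without cytoplasm replicate 1, 19 and 28 rose. It is not stated that the counting used strand, so antisense genes may share reads with their partners. Of 27 snoRNA host genes 12 rose and 3 fell (median 0.28), and without cytoplasm replicate 1, 8 fell. SNHG6, a snoRNA host, rose by 2.02 (SE 0.31; 1.38 without cytoplasm replicate 1) and SNHG4 changed by -0.89 (SE 0.12). LNCPRESS1, a long noncoding RNA of pluripotent cells, was higher in cytoplasm, at 119, 84.1 and 73.2 CPM against 34.7, 26.5 and 29.6 CPM (log2 change 1.6, SE 0.20).

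Among transcripts that host microRNAs, 1 of 16 rose and 4 fell (median -0.50), 6.25% and 25% against 35.6% and 30.1% of all genes. The share that fell was thus not above that of all genes. The number that fell was 8 without cytoplasm replicate 1. MIR124-1HG stood at 43.3, 25.5 and 25.4 CPM in cytoplasm and 118, 177 and 131 CPM in nucleus (log2 change -2.19, SE 0.25). MIR302CHG, the host of the stem-cell microRNA cluster miR-302, was not called at -0.61 (SE 0.35, adjusted p = 0.144). Its cytoplasm replicate 1 stood at 564 CPM, the other cytoplasm libraries at 210 and 165 CPM, and the nucleus libraries at 416, 543 and 472 CPM. Without cytoplasm replicate 1 it was called at -1.44 (adjusted p = 0.000128).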

How the data were processed

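The labels give total RNA as the molecule, and any selection of RNA is not given in the sources used here. Libraries were made with NEBNext Ultra kits and sequenced on an Illumina NovaSeq, per the labels' protocols. STAR, RSEM and the build hg38 are named, without version or role, per the submitters' processing notes. The authors deposited counts and TPM (transcripts per 1000000) for 32819 assembled transcripts in each of 12 libraries of H1 cells. The counts were summed here over each of 15115 Ensembl genes, and 437 transcripts with no Ensembl gene (0.911 to 9.36% of counts in the cytoplasm libraries) were left out of the gene sums. All columns of the tables used were mapped to samples (0 unmapped).

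Counts were fitted with edgeR 4.0.16 (R 4.3.3) by its quasi-likelihood test with TMM scaling, a filter at a minimum count of 10 and Benjamini-Hochberg adjustment over all features tested. All 12 libraries (4 fractions of 3) shared 1 estimate of the spread, and cytoplasm was set against nucleus at an adjusted p under 0.05. Each SE was derived as the absolute log2 change divided by the square root of the test's F statistic. CPM are counts per 1000000 of the TMM-adjusted library total, so their precision follows the depth of each library. TPM plus 1 was tested on the log2 scale with limma 3.58.1 (limma-trend). Further alternatives were a pseudocount of 0.1, total-count scaling, DESeq2 1.42.0, no filter, the 6 libraries alone, a replicate block, leaving out mitochondrially encoded genes or each library in turn, summing annotated transcripts only, and requiring a 2-fold change. On simulated counts for 13987 genes with 200 changed, 63% of 2-fold and 94% of 4-fold changes were recovered, and 6.55% of calls were false.

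GENCODE 29 gave a type to 97.0% of genes and matched 92.2% of 18405 listed transcripts. The 43 gene lists, the members and the hydropathy measure were chosen with earlier results of these data known. Named genes were the 10 largest rises and falls at a mean of at least 10 CPM without overlap, the 2 most abundant and the most changed members of each list, the 8 genes with the widest opposite isoforms, and the cell type markers; others are marked in the text. No replicate had the same values as another. Some members of the cholesterol list are not reported here by name.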

Additional observations from a re-analysis of the deposited data

How the results depend on the processing

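The count of called genes was 9191, and under the alternatives run it lay between 7110 genes (annotated transcripts only) and 9312 (total counts), with 8699 called without cytoplasm replicate 1 and 7950 without nucleus replicate 2; requiring a 2-fold change left 5231. Genes with transcripts called in both directions numbered 492, 287 with a 2-fold change required, and between 310 (without nucleus replicate 2) and 421 (without cytoplasm replicate 1) with 1 library left out. The median of all genes moved by 0.12 with total counts, by -0.30 on TPM plus 1, by -0.38 on TPM plus 0.1, by -0.10 without cytoplasm replicate 1, and by -0.11, -0.11 and -0.10 without nucleus replicates 1, 2 and 3. On TPM plus 1 and plus 0.1 the medians turned sign for zinc finger genes (-0.0653 and -0.0849), nuclear pore genes (-0.0784 and -0.0796), immediate early genes and the MYC family (-0.11 and -0.12), ribosomal protein pseudogenes (-0.0354 and -0.0428) and protein-coding genes as a whole (-0.18 and -0.23). Other medians also turned sign on TPM plus 1: pluripotency regulators (-0.33), Polycomb genes (-0.29), nonsense-mediated decay factors (-0.36), snoRNA hosts (-0.0215), LINC-named (-0.12) and divergent lncRNAs (-0.13). Without cytoplasm replicate 1 those of snoRNA hosts (-0.043), LINC-named (-0.10) and divergent lncRNAs (-0.0295) and pluripotency regulators (-0.0539) did so as well. With annotated transcripts only, the median of DNA methylation genes turned to 0.0381. Of single isoforms, the higher one of E2F1 (-0.15), and those without a segment of POM121 (-0.18) and POM121C (-0.29), turned sign on TPM plus 1, and the last ranged from -0.18 (without cytoplasm replicate 3) to 0.55 (without cytoplasm replicate 1) with 1 library left out. Of the recomputed values of 96 named genes, 1405 kept direction and call, 21 lost a call, 9 gained one and 0 changed sign. The cause was not tested.

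The replicate numbers were not shown to pair the libraries: deviations of same-numbered cytoplasm and nucleus libraries correlated at 0.200, 0.103 and 0.036, and cytoplasm replicate 3 correlated best with nucleus replicate 2. With a replicate block 9145 genes and 10842 transcripts were called, and 438 genes had transcripts called in both directions. Depth limits isoforms more than genes, and NEAT1 and SLC25A16 lie near the lower limit of the data.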
